A study of Schizosaccharomyces pombe with 2 samples.

Results

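Introns of 7 fission yeast (*Schizosaccharomyces pombe*) genes of the proteasome and ubiquitin pathway were followed through lariat sequencing, which reads the RNA circles left by splicing. The genes were pre6, pup2 and pre3 of the 20S core and the 19S receptor gene rpn1301. The others were the ligase subunit gene rbx1, the conjugating enzyme gene ubc15 and the NEDD8 protease gene nep1. The authors' peak table holds annotated introns of 1081 gene names, and 6 of the 7 genes are among them. The 7 genes were chosen by name with their values already known. Introns of pre6 and pup2 were known for high and those of rbx1 and nep1 for low peak reads, and pre3, rpn1301, ubc15 and nep1 for a skipped exon. Those values are therefore given as a description, with no test. All RNA came from strain 972 h- without dbr1, whose product opens the branched circle of an excised intron. RNA from 41 growth and treatment conditions was mixed, and the circular arc of 2-dimensional acrylamide gels was sequenced as 2 libraries, named for their short and long running conditions. The first gel held 7.5% acrylamide for both, and the second held 15% (short run) or 20% (long run). No value has a replicate, no strain with dbr1 was among the samples, and no condition could be compared with another.

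The 20S core is a barrel of alpha and beta subunits in which proteins are cut, and the 19S particle docks on it and takes in proteins that carry ubiquitin. Ubiquitin reaches a protein through an activating enzyme, a conjugating enzyme and a ligase. Cullin ligases need a RING subunit such as Rbx1 and are switched on by attachment of the ubiquitin-like protein NEDD8, which proteases such as Nep1 can process or remove. In splicing, the first base of the intron is joined to a branch adenosine near the intron's end, so an excised intron is a circle with a short tail. When an exon is skipped, both introns and the exon between them leave as 1 larger circle.

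The sequences of 6 introns of these genes in which reads crossed the branch are shown for their branch sites, in capitals, as the authors' table gives them. The first 2 introns, with the most reads, are complete, and of the others the last 30 bases are given. All are written 5′ to 3′ on the transcribed strand, from the RefSeq ASM294v3 assembly.
pre6 intron 2: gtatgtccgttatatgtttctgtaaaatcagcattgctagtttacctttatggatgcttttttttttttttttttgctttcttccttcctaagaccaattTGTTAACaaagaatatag
pup2 intron 2: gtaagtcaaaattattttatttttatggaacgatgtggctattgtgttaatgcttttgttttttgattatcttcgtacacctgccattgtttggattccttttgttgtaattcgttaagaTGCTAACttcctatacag
pre3 intron 3: tgttaaaaaaattATCTAACgattatgaag
rbx1 intron 1: tctgattcatatTGCTTACcttcaatttag
ubc15 intron 1: taattcttgaacacaTACTGATagatatag
ubc15 intron 2: acaagctggtCACTAACctcgaaaaattag
The introns of pre6 (chr2:410029-410146, plus strand) and pup2 (chr1:3909735-3909872, minus strand) lie between coding exons of their genes. So do intron 3 of pre3 (chr2:3118036-3118218), intron 1 of rbx1 (chr1:1575485-1575672) and introns 1 and 2 of ubc15 (chr2:3522920-3523001 and chr2:3523146-3523223), all on the plus strand. The sources used here do not name the authors' genome build. Every listed intron of these genes had both ends at an intron of the same gene and number in ASM294v3.

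The 7 genes hold 19 annotated introns, and 7 of these were in the peak table of the short run, which is 36.8%. Over all 5273 annotated mRNA introns of up to 2000 nt, 1258 were listed (23.9%). The listed introns measured 63 to 188 nt and belonged to 6 genes. The 12 that were not listed measured 38 to 78 nt, and both introns of rpn1301 (40 and 66 nt) were among them. By length, all 6 introns of 80 to 200 nt were listed, against 89.5% of such introns in the genome. Of 8 introns of 60 to 79 nt, 1 was listed, against 11.9%. None of 5 introns under 60 nt was listed, against 0.136% of the 2940 annotated introns of 30 to 59 nt. The number of listed introns in each length class was thus close to that of all genes. No added intron, the authors' class for introns outside their annotation, overlapped any of the 7 genes.

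**Figure D1:**
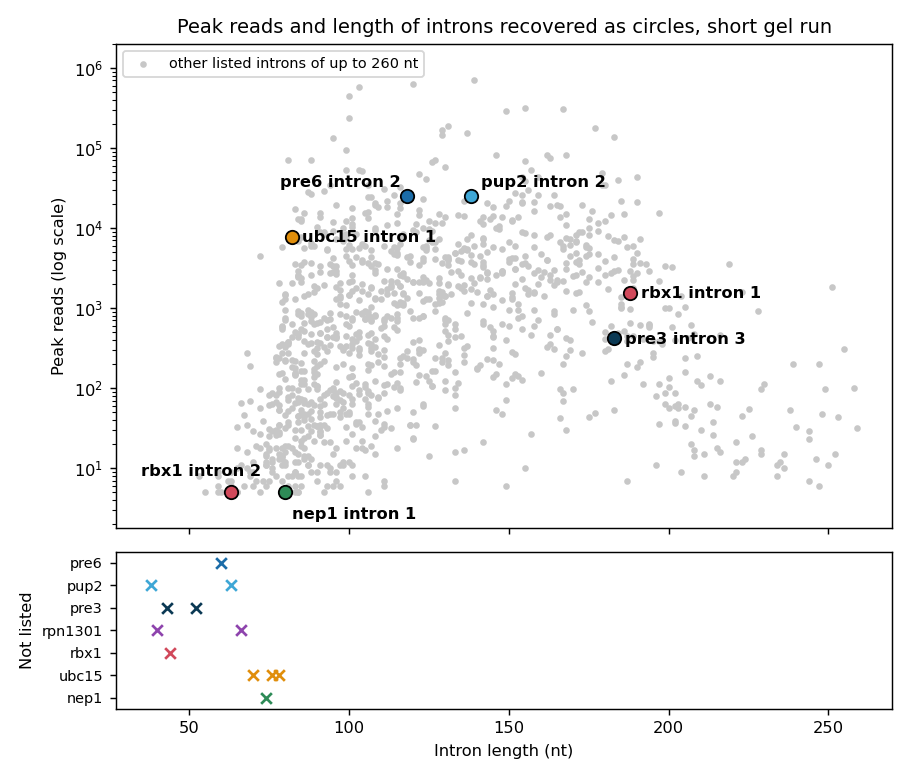
The upper panel plots peak reads on a log scale against intron length in nt for listed introns of up to 260 nt, with the 7 introns of the pathway genes in colour. The lower panel gives the lengths of the 12 introns that were not listed, all at 78 nt or less, whereas the listed ones reach from 5 reads for rbx1 intron 2 and nep1 intron 1 to 25070 for pre6 intron 2.

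Among the 20S genes, 2 alpha subunit introns gave almost the same count and the beta subunit intron far fewer. Intron 2 of pre6, which encodes alpha 4, had 25070 reads (exact Poisson 95% interval 24761 to 25382). Intron 2 of pup2, which encodes alpha 5, had 24885 reads (24577 to 25196), and the intervals overlap. Both exceeded the median of the 1292 listed introns, 438 reads (quartiles 52 and 2947), and ranked 54 and 55. Intron 3 of pre3, which encodes the beta 1 subunit with caspase-like activity, had 421 reads (382 to 463), close to that median. Because pre6 and pup2 were known for high reads when chosen, nothing is read from their difference to pre3. Intervals cover counting error only, and since PCR copies are not independent molecules they may be too narrow even for that.

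These introns differ in length, so each was also set beside listed introns within 20 nt of its own length. The 118 nt intron of pre6 lay at percentile 94.9 of 423 such introns, whose median was 1152 reads. The 138 nt intron of pup2 lay at percentile 92.5 of 301, with a median of 2023 reads. Against neighbours in length the pre3 intron stood lower than in the whole table, at percentile 26.8 of 185 introns with a median of 2130 reads, compared with percentile 49.2 of all. The transcript level of each gene was not measured in these tables, so recovery and transcript abundance cannot be told apart.

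Within rbx1, which encodes the RING subunit of cullin ligases, the introns spanned the range of the table. Intron 1, of 188 nt, had 1543 reads (1467 to 1622). Intron 2, of 63 nt (chr1:1575823-1575885, plus strand), had 5 reads (1.6 to 11.7), the lowest count in the table, which 17 introns shared. Intron 3, of 44 nt, was not listed. For its length, intron 1 was at the middle (percentile 50.3 of 170 introns), while intron 2 was at percentile 3.64 of 165 introns with a median of 30 reads. The order of counts thus followed the order of lengths in this gene.

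A pair of introns of nearly equal length stood at opposite ends. Intron 1 of ubc15, a ubiquitin-conjugating enzyme gene, measured 82 nt and had 7775 reads (7603 to 7950). Intron 1 of nep1, which encodes a NEDD8 protease, measured 80 nt (chr2:3304865-3304944, plus strand) and had 5 reads (1.6 to 11.7). They lay at percentile 91.8 of 458 and percentile 1.53 of 425 introns of like length, with medians of 112 and 98 reads. Both genes have further introns, of 78, 76 and 70 nt in ubc15 and of 74 nt in nep1, and none of these was in the peak table.

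**Figure D2:**
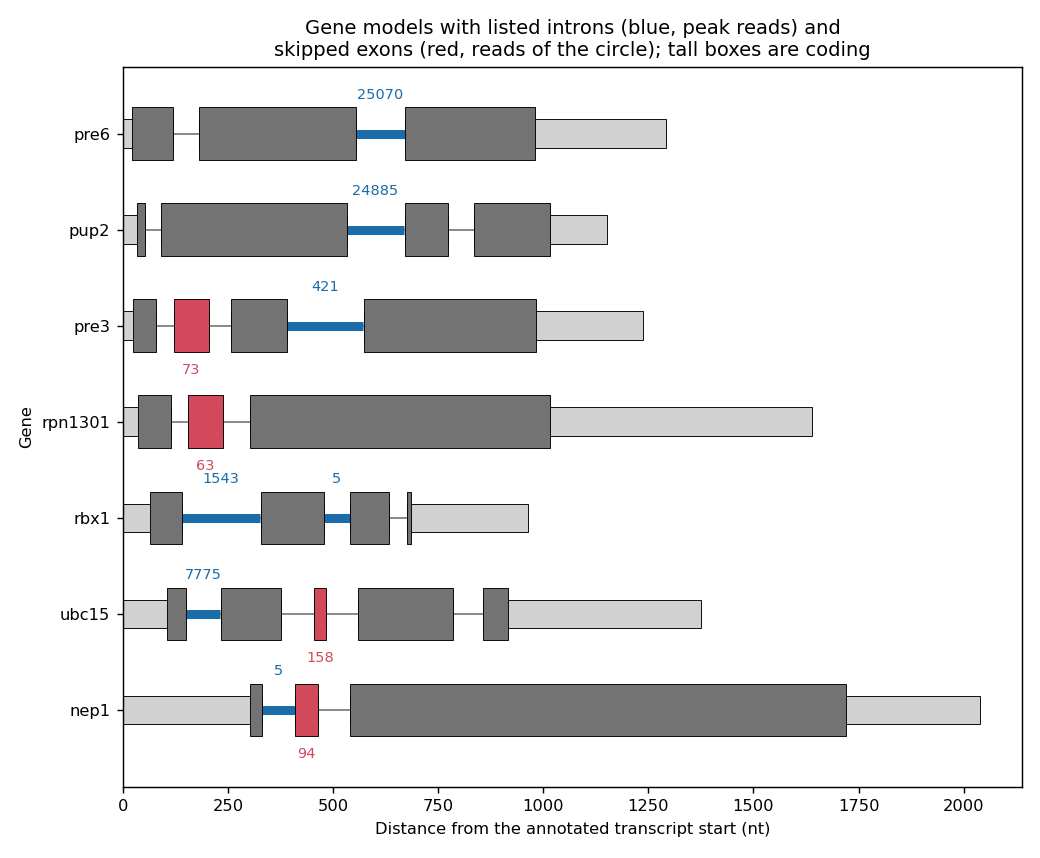
Gene models to scale from the annotated transcript start, in nt, with coding parts as tall boxes, listed introns in blue with their peak reads and skipped exons in red with the reads of the circle. pre6, pup2 and rbx1 have listed introns and no listed skipped exon, rpn1301 has only a skipped exon (63 reads), and pre3, ubc15 and nep1 have both.

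Branch reads were found in 6 of the 19 introns, with 328 reads at 8 positions. Of the 7 introns in the peak table, 5 had branch reads (71.4%, against 58.8% of all 1292). The other 2 were the introns of rbx1 and nep1 with 5 peak reads, and their branch points are not known from these tables. Intron 2 of ubc15 had 2 branch reads and no entry in the peak table. For 57 of the 817 introns in the branch table no peak entry was matched by gene, intron number and sequence. Some of these may be failed matches, since 1269 of the 1292 names in the peak table were matched to a gene.

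The alpha subunit introns had their branch at the same distance from the intron end. In pre6, 129 of 132 branch reads lay at TGTTAAC (97.7%, Wilson 95% interval 93.5 to 99.2), and in pup2, 170 of 172 lay at TGCTAAC (98.8%, 95.9 to 99.7). Both sequences end 11 bases before the end of the intron, which is also the median over the branch table (quartiles 9 and 13). In both introns the remaining reads, 3 in pre6 and 2 in pup2, lay at the 7-base sequence that starts 1 base upstream (TTGTTAA and ATGCTAA). The branch base, taken as position 6, is then the adenosine just before the leading one. Such a neighbour was common, since 117 of the 167 introns with more than 1 position had one (70.1%). pup2 carries one of the frequent branch sequences, leading in 67 of 817 introns, whereas TGTTAAC of pre6 led in 7.

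The remaining introns had few branch reads, each at a single position. Intron 3 of pre3 had 6 at ATCTAAC, 10 bases from the end, a sequence that led in 22 introns. Intron 1 of rbx1 had 8 at TGCTTAC, 11 bases from the end, which led in 4 introns. Intron 1 of ubc15 had 8 at TACTGAT, 8 bases from the end, which led in 2 introns including itself. These last 2 sequences lack the ending TAAC that 67.0% of leading sequences share. Intron 2 of ubc15 had its 2 reads at CACTAAC, 13 bases from the end, so the branches of adjacent introns of this gene were the nearest and the farthest among the 6. With 2 to 8 reads, other positions could have been missed.

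**Figure D3:**
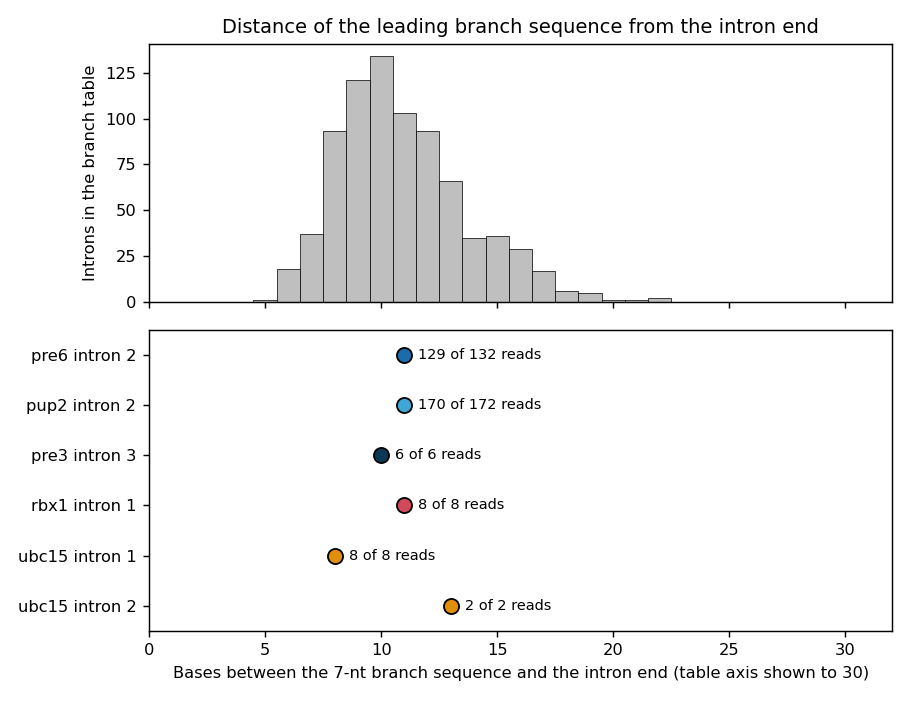
The upper panel counts introns of the branch table by the number of bases between the leading 7-base branch sequence and the intron end, leaving out 19 introns over 30 bases. The lower panel gives the same distance for the 6 introns of the pathway genes, from 8 in ubc15 intron 1 to 13 in ubc15 intron 2, with the reads at the leading position.

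Branch reads were set against peak reads in the 5 introns that have both. Intron 1 of ubc15 had the lowest ratio, with 1.03 branch reads per 1000 peak reads (95% interval from the Poisson interval of branch reads 0.444 to 2.03). That interval lies below those of pre6 at 5.27 (4.41 to 6.24), pup2 at 6.91 (5.92 to 8.03), rbx1 intron 1 at 5.18 (2.24 to 10.2) and pre3 at 14.3 (5.23 to 31.0). The 760 introns in both tables had a median of 4.69 and quartiles of 1.16 and 19.3, so every value but that of ubc15 lay within them.

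Skipped exons were listed in 4 of the 7 genes, with 1 event each among the 23 events of the table. The 7 genes have 12 internal exons, so the share listed is 33.3%, against 0.825% of the 2788 internal exons of mRNA genes. Because the genes were partly chosen for these events, nothing is read from that difference. The 4 circles are shown because each holds the exon, in capitals, between its 2 introns. All lie on chromosome 2, plus strand, and run from the first base of the upstream intron to the last base of the downstream intron. The sequences and lengths given thus include the short tail after the branch.
pre3 exon 2 circle: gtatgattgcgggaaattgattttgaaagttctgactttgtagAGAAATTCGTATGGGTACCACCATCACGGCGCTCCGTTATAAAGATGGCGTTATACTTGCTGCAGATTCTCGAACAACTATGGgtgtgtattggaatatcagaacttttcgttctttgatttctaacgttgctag
rpn1301 exon 2 circle: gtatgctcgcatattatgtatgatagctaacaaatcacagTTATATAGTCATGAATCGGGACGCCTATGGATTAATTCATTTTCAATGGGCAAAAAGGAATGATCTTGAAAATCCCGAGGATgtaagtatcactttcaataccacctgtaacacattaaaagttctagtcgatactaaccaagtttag
ubc15 exon 3 circle: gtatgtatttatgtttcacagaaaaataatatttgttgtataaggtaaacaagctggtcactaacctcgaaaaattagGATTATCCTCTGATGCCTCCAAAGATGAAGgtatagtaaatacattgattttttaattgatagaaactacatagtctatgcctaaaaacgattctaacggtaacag
nep1 exon 2 circle: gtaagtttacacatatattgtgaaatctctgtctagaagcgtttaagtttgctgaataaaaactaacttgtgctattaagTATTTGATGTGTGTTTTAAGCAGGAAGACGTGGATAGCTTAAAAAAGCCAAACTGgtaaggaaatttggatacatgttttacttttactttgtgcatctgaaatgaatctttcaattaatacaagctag
They span chr2:3117725-3117902, chr2:4208378-4208565, chr2:3523146-3523329 and chr2:3304865-3305073 in that order, and measure 178, 188, 184 and 209 nt. Each length in the authors' table equals the sum of the exon and both introns in the annotation.

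By reads, exon 3 of ubc15 led with 158 (exact Poisson 95% interval 134 to 185), rank 8 of 23. Exon 2 of nep1 had 94 reads (76 to 115), exon 2 of pre3 had 73 (57.2 to 91.8) and exon 2 of rpn1301, which encodes a proteasome subunit that receives ubiquitin, had 63 (48.4 to 80.6). The interval of ubc15 lies above the other 3, which overlap one another, and the median over all events was 107 reads. The runs that listed each event differed. The ubc15 circle was listed for the short run, the pre3 circle for both runs, and those of nep1 and rpn1301 for the long run. By these labels the count of ubc15 comes from a different library than those of nep1 and rpn1301. The reads of pre3 are not divided between the runs. Counts were not normalized between libraries, so the order of these events by reads is a description only. In the whole table, the 9 circles of the long run alone measured at least 188 nt and the 14 that involve the short run at most 184 nt, so ubc15 and rpn1301 lie at either side of that division. The peak table of the short run holds introns of this size, such as rbx1 intron 1 of 188 nt with 1543 reads. What set the division of the circles was not tested.

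The introns beside these exons were almost all outside the peak table. Of the 8 flanking introns, which measured 40 to 80 nt, 1 was listed, namely intron 1 of nep1 with 5 reads. Over all 23 events, 6 of 46 flanking introns were listed. As introns under 80 nt were seldom listed in any gene, the share of skipping against normal splicing could not be computed from these tables.

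The 4 skipped exons were the shortest of the 12 internal exons. They measured 30 nt in ubc15, 55 in nep1, 82 in rpn1301 and 83 in pre3, and the others measured 91 to 442 nt. Over all listed events the exons measured 13 to 127 nt, with a median of 65 nt against 139 nt for all internal exons. These medians are not matched for circle size, since an exon and both its introns must fit within a listed circle. Listed circles in the whole table measured 121 to 279 nt. Over all genes, 1217 of the 2788 internal exons would give a circle in that range, and 23 of these (1.89%) were listed. Of the 12 exons here, 5 would give such a circle and 4 were listed. Nothing is read from that difference either, as the genes were partly chosen for these events. The fifth is exon 3 of rbx1, of 91 nt, whose circle would measure 198 nt and was not listed. For the other 7 exons the circle would measure 304 to 618 nt, longer than any listed.

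**Figure D4:**
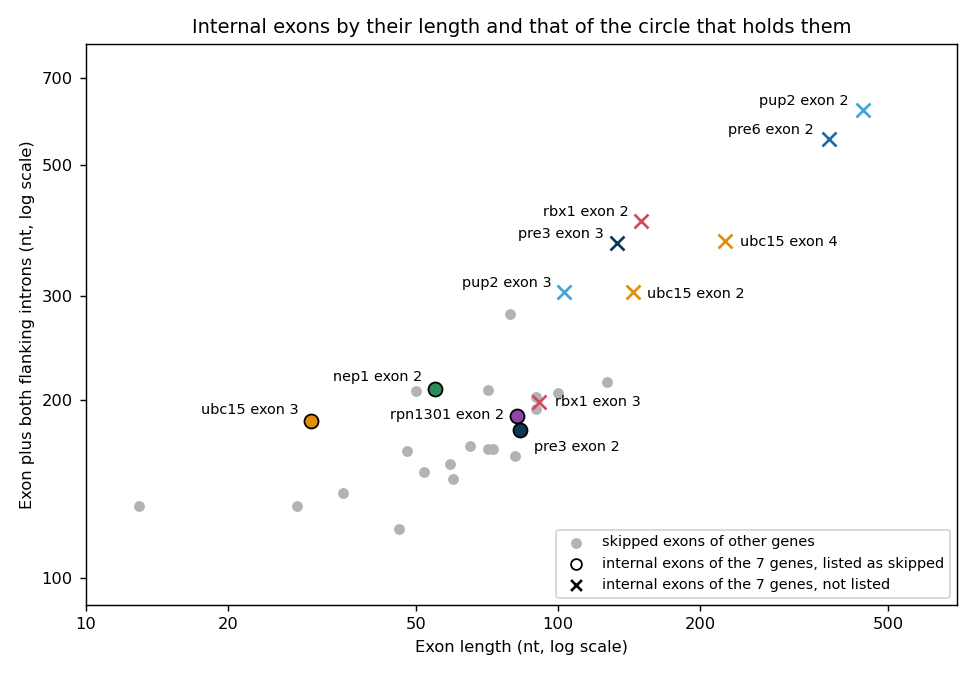
Length of the exon plus both flanking introns against exon length, both in nt on log scales, for the 12 internal exons of the pathway genes and the skipped exons of other genes. The 4 listed exons (filled circles, 30 to 83 nt) sit among the other skipped exons, as does rbx1 exon 3 (cross, 91 nt), and the other crosses lie at 304 nt or more.

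In ubc15 the exon holds 10 whole codons, so that joining exons 2 and 4 keeps the reading frame and leaves 157 of 167 codons. In the other 3 genes the exon is not a multiple of 3, and the joined coding sequence reaches a stop early. That stop comes after 13 codons of 420 in nep1, after 27 of 226 in pre3 and after 28 of 291 in rpn1301. The exon of pre3 also holds, in frame, the codon pair GGTACC for a glycine and a threonine. In budding yeast the beta 1 subunit is cleaved between a glycine and a threonine, which frees the catalytic threonine. Over all 23 events 6 exons were multiples of 3 (26.1%), against 37.5% of internal exons. The joined mRNAs and their proteins were not measured.

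Splice signals varied among the 19 introns. The most frequent first 6 bases in the genome, GTAAGT, open 27.4% of annotated mRNA introns and 6 of these 19, of which 4 were listed, namely those of pup2 intron 2, pre3 intron 3, rbx1 intron 2 and nep1 intron 1. GTAAGT thus opened introns with 24885 reads and with 5 reads. Intron 1 of rbx1 opens with GTTCGT (0.872% of introns) and intron 1 of ubc15 with GTAAGC (4.25%). The motif CTAAC, searched on the transcribed strand in the last 40 bases, is in 11 of the 19 introns (57.9%) and in 43.8% of all annotated introns. It is in 3 of the 7 listed introns, those of pup2, pre3 and nep1, and a match is no evidence that a branch forms there.

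Other genes of the pathway were taken from 7 lists of 118 genes. Of their 180 annotated introns, 49 were listed (27.2%), a share near the 23.9% of all annotated mRNA introns. Name matching had also taken dph1, a gene of diphthamide synthesis, and without it 48 introns of 40 genes were listed, at a median count of 1143.5. The table median of 438 was exceeded by 29 of the 48. The 41 that belong to none of the 7 genes had a median of 1115 reads. All these counts still include intron 3 of pan2 with 1172 reads, a poly(A) deadenylase gene also taken by name matching. All 4 skipped exons of the lists were those described above.

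The 20S list had 6 listed introns of 5 genes, with a median of 5650 reads. Besides pre6, pup2 and pre3, these were intron 3 of pre5 (alpha 6) with 5805 reads and introns 3 and 1 of pre8 with 5495 and 3336. The pre3 intron thus had the lowest count among the 6 listed, while the list has 19 annotated introns. The 19S list had 7, with a median of 391. Its highest were introns of dss1, a small 19S subunit, with 34144 reads, and of the ATPase genes rpt2 with 1803 and rpt5 with 1115. Its lowest were intron 1 of rpn1302 with 36 reads, intron 1 of rpt4 with 12 and intron 2 of rpn10 with 5. The gene rpn1302 is the paralogue of rpn1301, and its 197 nt intron was listed while both of rpn1301 were not.

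The list of activating and conjugating enzymes had 13 listed introns, with a median of 1334 reads. The count of ubc15 intron 1 was exceeded in 3. These were intron 2 of ptr3, the activating enzyme, with 19174 reads and introns 2 and 3 of mms2, a conjugating enzyme variant, with 18654 and 11676. The lowest were intron 2 of ubc6 with 96 reads, intron 2 of ubc4 with 19 and intron 3 of rhp6 with 17. Of the cullin list 7 introns were listed, with a median of 274 reads. The scaffold gene cul1 had 8191 and 2183 reads in introns 2 and 3 and 39 in intron 4, which placed intron 1 of rbx1 below introns 2 and 3 of cul1, and intron 2 of rbx1 at the bottom. Intron 1 of pof12 had 43. In the NEDD8 and signalosome list, intron 1 of csn5 had 1825 reads, intron 3 of csn3 had 581, introns 3 and 2 of ubc12, the NEDD8 conjugating enzyme, had 110 and 18, and nep1 was the lowest of the 5. The list of deubiquitinating enzymes had 9 listed introns with a median of 1172 reads. That median is the count of intron 3 of pan2, a poly(A) deadenylase gene taken by name matching. The highest were 6277 in ubp15, 6177 in ubp8 and 1379 in uch2. The lowest were 643 in ubp4, 431 in ubp2 and 130 in intron 4 of sst2. Of the last list, intron 2 of ufd1 had 505 reads.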

How the data were processed

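The authors deposited whole-number read counts, not normalized, per peak over annotated and added introns and per circle with a skipped exon, per the file headers. They also deposited, per the file headers, branch sequences with a distance and a count. The submitters' processing notes name Bowtie 0.12.3 and SAMtools with no role. The sources used here name no peak caller, limits, annotation or genome build. All tables except that of skipped exons are assigned to the short run by their names alone. Peak reads summed to 9296300 over annotated and 895323 over added introns, which is not the library depth. The lowest listed counts were 5 and 50. Of 1314 lines, 22 were repeats and were used once, leaving 1292 introns.

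Introns were compared with ASM294v3 by both ends, exons of the annotated transcript were used, and branch sequences were placed at their distance from the intron end. The branch distance counts bases after the 7-base sequence. A percentile is the share of introns with fewer reads, with ties divided evenly. No test was made, since there is 1 library per gel run. Intervals are exact Poisson for counts and Wilson for shares, at 95%. Python 3.11.15, numpy 2.4.6, scipy 1.17.1 and matplotlib 3.10.9 were used. The genes, the 7 lists and the alternatives were chosen with earlier results of these data known. Every intron and skipped exon of the 7 genes is described, and in each list the 3 highest and 3 lowest introns, fewer where a list was short. Lists were matched by symbol or synonym, and 131 of 138 names matched.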

Additional observations from a re-analysis of the deposited data

How the results depend on the processing

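The 7 listed introns had a median of 1543 reads, and it depended on which introns were taken. It was 4659 over introns of 80 to 200 nt or with 1 intron per gene, and 7775 with at least 50 reads. The number listed, 7, was 5 with at least 50 reads and 6 within 80 to 200 nt. Of 31 alternative values, 10 could not change, because no repeated line belonged to these genes, 3 introns had a single branch position, and no position had under 2 reads. Of the other 21, 7 stayed within their 95% counting interval or, for the number listed, within 1.5 times. The 14 that moved were 3 medians, by over 1.5 times, and 11 of 14 percentiles of single introns, which left the binomial interval of their share of the table. Divided by length, percentiles were 44.3 for pre3 intron 3, 60.3 for rbx1 intron 1, 91.1 for ubc15 intron 1, 7.93 for rbx1 intron 2 and 5.53 for nep1 intron 1. Skipped circles were not set against peak reads of their flanking introns, since 7 of those 8 introns have no peak reads. The branch positions of introns with 2 to 8 branch reads are limited by depth. No paired analysis was possible because there is 1 library per gel run.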

Other observations

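The first bases of the introns beside skipped exons were compared in all 23 events, a choice made after the data were seen. The intron upstream of the exon opened with a 6-base sequence held by a median of 19.6% of annotated introns, and the intron downstream by a median of 2.50%, while the median over all introns was 6.58%. The downstream sequence was the rarer in 14 events, the upstream one in 6, and they were equal in 3. GTAAGT or GTATGT opened 12 of 23 upstream and 5 of 23 downstream introns, against 47.0% of all annotated introns. Sequences held by under 5% of introns opened 9 of 23 upstream and 16 of 23 downstream introns, against 41.3% of all. By both shares the upstream introns were close to all introns, although their median was higher. That median is sensitive, since 2 sequences alone open 47.0% of introns. The motif CTAAC, in the last 40 bases, was in 13 downstream and 7 upstream introns, against 43.8% of all annotated introns.

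Of the pathway genes, 3 had the rarer sequence downstream. In ubc15 they were GTATGT (19.6%) and GTATAG (0.209%), in nep1 GTAAGT (27.4%) and GTAAGG (2.50%), and in pre3 GTATGA (4.85%) and GTGTGT (0.512%). In rpn1301 the order was the opposite, with GTATGC (3.79%) upstream and GTAAGT (27.4%) downstream. CTAAC was in both introns of ubc15 and rpn1301, in the downstream intron of pre3 and in the upstream intron of nep1. These are descriptions of 23 chosen exons with no test.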
